A study of Mus musculus with 7 samples.

Results

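The cytosolic ribosome of mouse liver was followed over a day through 56 genes named after its proteins, of which 51 encode core proteins. All 56 are called ribosomal protein genes below. The genes were chosen by name: an array probe set had to carry 1 gene symbol, Rpl or Rps followed by a number, with S6 kinases (Rps6k) and pseudogenes ending in -ps left out. For each gene the probe set with the highest mean over the 7 arrays was kept if that mean was above 85 units, where a unit is the deposited log2 value taken back to the linear scale. Of 59 genes that fitted the name, 56 were kept, and they stand among 12076 probe sets of 10966 genes that passed the same minimum. The lowest genes kept were Rpl14 at 87.4 units and Rpl12 at 87.9 units, and those left out were Rpl10l at 55.5, Rpl3l at 24.2 and Rpl39l at 15.8 units.

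The samples were livers of male C57/BL6 mice, given in the labels as 9 to 11 weeks old at the start of 2 weeks of housing, before the period of timed feeding, with no genetic or drug treatment. All groups shared a cycle of 12 h light and 12 h dark, with lights on at Zeitgeber Time 0 (ZT0) and off at ZT12, and had had food only between ZT12 and ZT24 for 7 days. At 7 times, every 4 h from ZT02 to ZT26, equal amounts of liver RNA from 5 mice were pooled and hybridised to 1 array, so that ZT02 and ZT26 are the same clock time on successive days. There was no replicate array, and the spread between mice was averaged away in the pools. The p-values below measure the scatter of 7 pools around a fitted curve, or around the dark and light means. Arrays of 1 phase are different times and not replicates, so that scatter includes changes within the phase. In the limma tests the scatter of a probe set is drawn towards that of all tested probe sets. In these bulk samples, fewer cells of a type and less RNA per cell cannot be told apart.

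Of the 56 genes, 32 carry an Rpl name (large subunit) and 24 an Rps name (small subunit), and 51 encode core proteins of the ribosome. The other 5 fit the name only: Rpl7l1 and Rps19bp1, related to or interacting with a ribosomal protein, and Rps23rg1, Rpl32l and Rps4l, whose symbols mark them as relatives of a ribosomal protein gene. Another 20 ribosomal protein genes, Rpl3, Rpl11, Rps23 and Rps27 among them, are named only on probe sets that carry several symbols, and are not among the 56.

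A ribosome is built from ribosomal RNA and many small proteins in fixed proportion, and the mRNAs of these proteins are among the most abundant in any growing or secreting cell. Most of these mRNAs start with a C followed by an unbroken run of pyrimidines, the terminal oligopyrimidine (TOP) motif, through which mTOR signalling and the RNA-binding protein LARP1 set how much of the mRNA is translated. The liver makes most plasma proteins, and feeding is a well-known stimulus of its mTOR signalling. RNA levels, as measured here, do not report translation.

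The start sites below are shown because a pyrimidine run at the start was more frequent among these genes than among all RefSeq genes, although many of them lack it at the annotated start. They come from RefSeq (GRCm38.p6), which held a promoter window for 45 of the 56 genes. Each line gives 20 bases before and 20 from an annotated start, 5′ to 3′ on the gene's strand, with the run in capitals. Rps6, whose protein is the classical S6 kinase substrate, lies at chr4:86857348-86857387 on the minus strand, Rps10 at chr17:27635225-27635264 (minus), Rps15a at chr7:118116128-118116167 (minus) and Rps18 at chr17:33955646-33955685 (minus). Rpl7a lies at chr2:26910787-26910826 (plus), Rpl28 at chr7:4792945-4792984 (plus), Rpl34 at chr3:130730318-130730357 (minus) and Rpl38 at chr11:114668560-114668599 (plus). The windows of Rpl7a, Rpl34 and Rpl38 lie at starts inside the gene's RefSeq bounds and not at its outer end. Rpl7l1, at chr17:46782637-46782676 (minus), is shown as a member with no such run at its start.
Rps6: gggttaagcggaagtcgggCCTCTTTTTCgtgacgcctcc
Rps10: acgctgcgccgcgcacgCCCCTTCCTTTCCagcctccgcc
Rps15a: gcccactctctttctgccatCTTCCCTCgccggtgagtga
Rps18: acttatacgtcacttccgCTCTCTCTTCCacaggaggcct
Rpl7a: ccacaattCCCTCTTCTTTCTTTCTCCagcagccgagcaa
Rpl28: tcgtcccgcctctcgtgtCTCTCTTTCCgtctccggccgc
Rpl34: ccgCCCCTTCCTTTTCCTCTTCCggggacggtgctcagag
Rpl38: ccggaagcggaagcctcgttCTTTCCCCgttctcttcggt
Rpl7l1: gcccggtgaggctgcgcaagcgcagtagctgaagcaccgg

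A run of at least 7 pyrimidines that begins with C covered the annotated start in 14 of 53 windows of these genes (26.4%), against 4.25% of 32851 RefSeq windows. The windows of Rpl32l and Rps23rg1, genes outside the core proteins, are among the 14. Within 25 bases of the start such a run was found in 26 of the 53 windows, 49.1% against 22.8% of all windows. In the whole window, from 250 bases before to 50 bases after the start and on both strands, CCGGAAG, the core bound by ETS factors such as GABP, was found in 17 of 53 windows (32.1%), against 8.86% of all windows. GGGCGG, the GC box, was present in 56.6% against 35.7%, and CACGTG, the E-box that CLOCK and BMAL1 bind, in 13.2% against 7.15%. The 7 windows with CACGTG belonged to 5 of the 45 genes, since a gene can have several windows. The other motifs searched, GCCATCTT and TTATGNAA (N any base), were found in 5.66% and 3.77%, against 2.75% and 3.38%. The comparison windows are those of all RefSeq genes, whether or not they are expressed in liver. These matches describe the letters of the windows and are not measurements of binding, and annotated starts can lie several bases from the start used in liver.

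The transcripts were abundant. Mean levels ran from 87.4 units for Rpl14 to 9616 units for Rpl10, with a median of 1555 units, against 331 units for all tested probe sets. In all, 37 of the 56 (66.1%) were above 1000 units, as were 18.7% of all tested probe sets. Levels of different probe sets are not comparable molecule for molecule, since each probe set has its own affinity, and the 36 genes with several probe sets show this: their probe sets differed by a median of 1.46-fold in mean, and by up to 7.17-fold for Rpl23.

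Over the day the arrays differed little in these levels. The highest array was 1.11-fold above the lowest for the median gene (0.15 on the log2 scale, quartiles 0.11 and 0.20), against 1.24-fold for the median of all tested probe sets. The range stayed under 1.2-fold for 46 of the 56 genes (82.1%), compared with 39.7% of all tested probe sets, and passed 1.5-fold for 2 of them, Rps23rg1 and Rpl12, compared with 16.3%. The difference from other genes was also present at high signal. Among probe sets above 1000 units, the median range was 0.14 log2 for 37 ribosomal protein genes and 0.25 log2 for all 2262 tested. Both subunits had a median range of 0.15 log2.

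**Figure D1:**
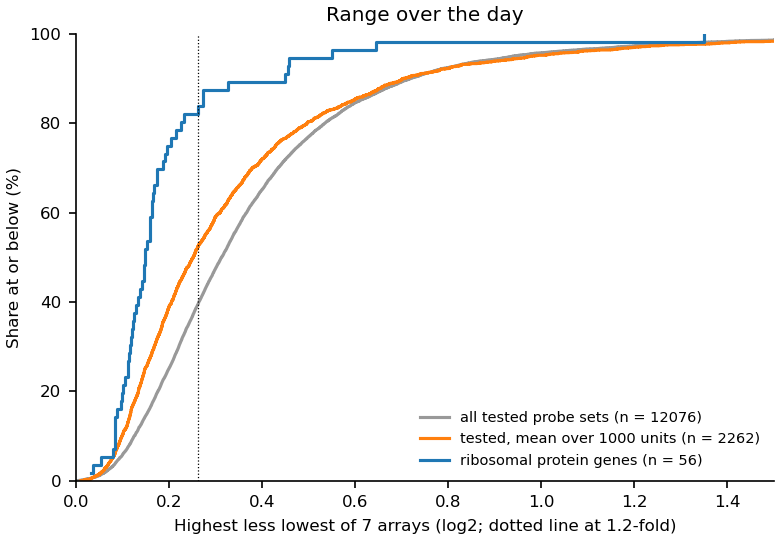
The share of probe sets (y axis, %) whose highest array exceeds their lowest by no more than the log2 difference on the x axis, for the 56 ribosomal protein genes, for all 12076 tested probe sets and for the 2262 of these with a mean above 1000 units. At the dotted line, 1.2-fold, the curve of the ribosomal protein genes has reached 82.1%, against 39.7% for all tested probe sets.

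The most abundant and the functionally central members show how flat the profiles were. Rpl10 (probe set 10485654), which joins the large subunit late and lines the tRNA sites, read 9634, 9269, 9588, 9817, 9774, 9599 and 9634 units from ZT02 to ZT26. It was lowest at ZT06, and its first and last arrays read the same. Rps6 (10363699) read 8212, 8357, 8384, 8835, 8575, 8637 and 8621 units. Its 2 lowest arrays were ZT02 and ZT06, its highest was ZT14, and the range was 1.08-fold. Of its 8 probe sets, 7 were highest at ZT14, and 2 had ZT02 and ZT06 below the other arrays. Rps2 (10445239), at the mRNA entry channel, read 7620, 7217, 7109, 7341, 7329, 7391 and 7688 units, lowest at ZT10 and highest at ZT26. The 3 probe sets of Rps2 were highest on different arrays, ZT26, ZT22 and ZT18, with ranges of 0.113, 0.045 and 0.033 log2. Rps3 (10565802), its neighbour in the channel, read 1153, 1110, 1132, 1119, 1117, 1117 and 1091 units, with the first array the highest and the last the lowest.

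Rpl5 (10523893), which carries 5S rRNA into the large subunit, read 1969, 2038, 1849, 2011, 1860, 1890 and 1826 units. High and low arrays alternated, with ZT06 and ZT14 the highest. Rps19 (10551021), mutated in Diamond-Blackfan anaemia, read 459 units on 5 of 7 arrays, 469 at ZT06 and 458 at ZT14. Identical values on several arrays were common on this platform: 24 of the 56 genes (42.9%) and 47.8% of all tested probe sets had the same value on at least 2 arrays. The smallest range of all belonged to Rpl37a (10561138), which read between 2459 and 2515 units, a 1.02-fold range. Across the 7 measured genes linked to Diamond-Blackfan anaemia (Rps7, Rps10, Rps19, Rps28, Rps29, Rpl5 and Rpl26), the ranges were 0.04 to 0.20 log2.

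**Figure D2:**
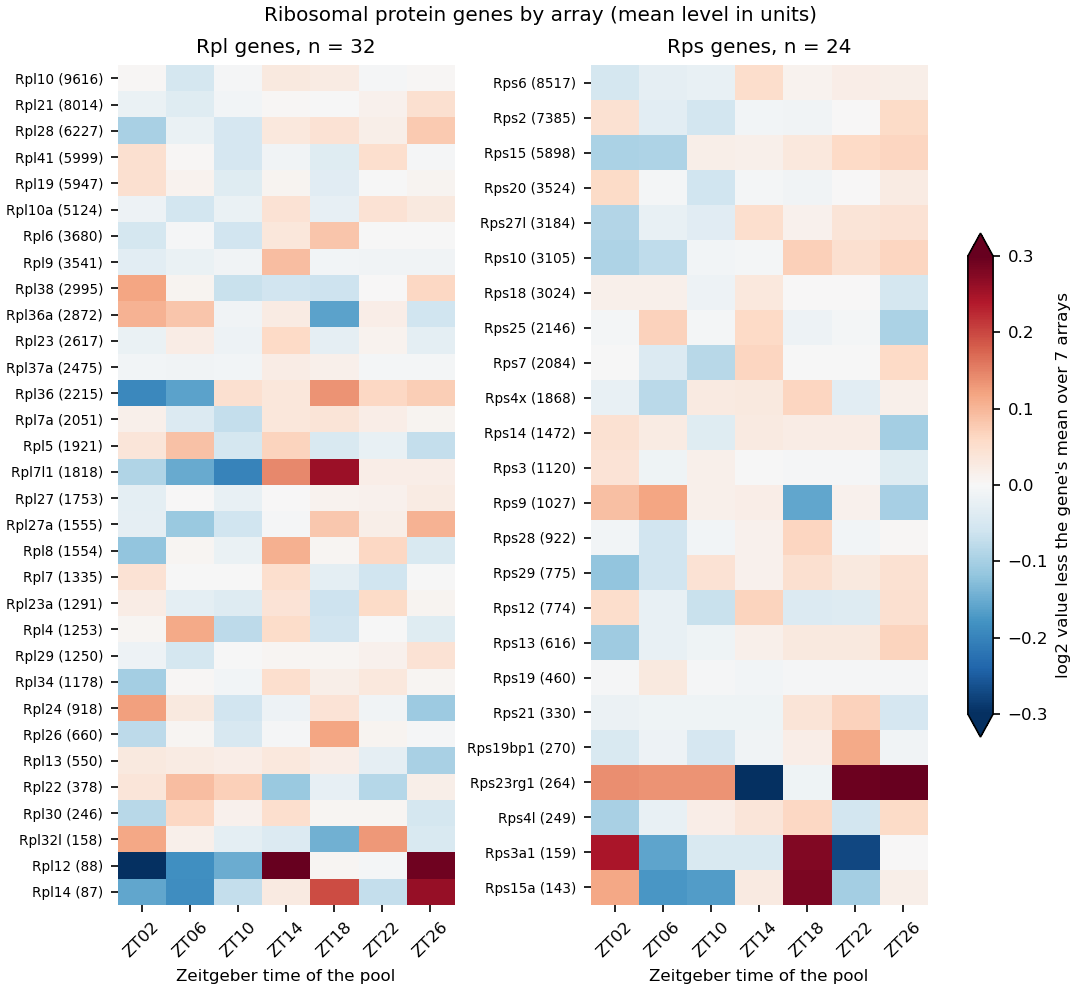
Each row is 1 of the 56 genes, ordered within the Rpl and Rps names by mean level (in units, in brackets), each column is 1 array from ZT02 to ZT26, and colour gives the log2 value less the gene's mean over the 7 arrays, with the scale ending at 0.3 in either direction. Most rows are pale, and the strong colours lie with genes at the bottom, which have low levels, and with Rpl7l1. The ZT10 column holds no gene's highest value on its chosen probe set, where 17.9% of all tested probe sets have theirs.

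Small as the differences were, their direction was shared at 1 point of the day. At ZT14, 2 h into the dark and feeding phase, 46 of the 56 genes read higher than at ZT10, the last array in the light before food was given (82.1%), against 47.8% of all tested probe sets. The median difference was 0.04 log2, with quartiles of 0.01 and 0.08. At the other 5 steps between successive arrays, 22 to 28 of the 56 genes read higher on the later array, and the median step was within 0.02 log2 of 0. At ZT10 no gene was at its highest value on its chosen probe set, against 17.9% of all tested probe sets. Of the 56 genes, 11 (19.6%) lay above their own mean there, against 50.6%. Some probe sets that were not chosen, such as those of Rps9 and Rps14, were highest at ZT10. Of the 36 genes with several probe sets, 12 had the same highest array on all of them. At ZT14, 40 of the 56 (71.4%) were above their own mean, against 51.8% of all tested probe sets. There 14 of the 56 were at their highest, as were 18.4% of all tested probe sets.

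The ZT10 to ZT14 step was also seen with other choices of probe set and level. ZT14 was the higher in 34 of the 37 genes above 1000 units (91.9%), compared with 52.7% of all tested probe sets above 1000 units, in 43 of the 51 core genes, and in 45 of 56 when all probe sets of a gene were averaged. After each array was centred on the median of all probe sets, 42 of the 56 (75%) were still higher at ZT14, by a median of 0.04 log2. The 237 probe sets that name a ribosomal protein gene beside other symbols were not used to choose the genes, and 212 of them were higher at ZT14 (89.5%), by a median of 0.04 log2. Many of these 237 detect near-identical copies of 1 gene, so they are not independent of each other. Probe sets naming any of the 56 genes were not left out of them, and they were read on the same pools. They are therefore not independent of the 56 either. The step compares 1 pool with 1 pool and has no test.

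**Figure D3:**
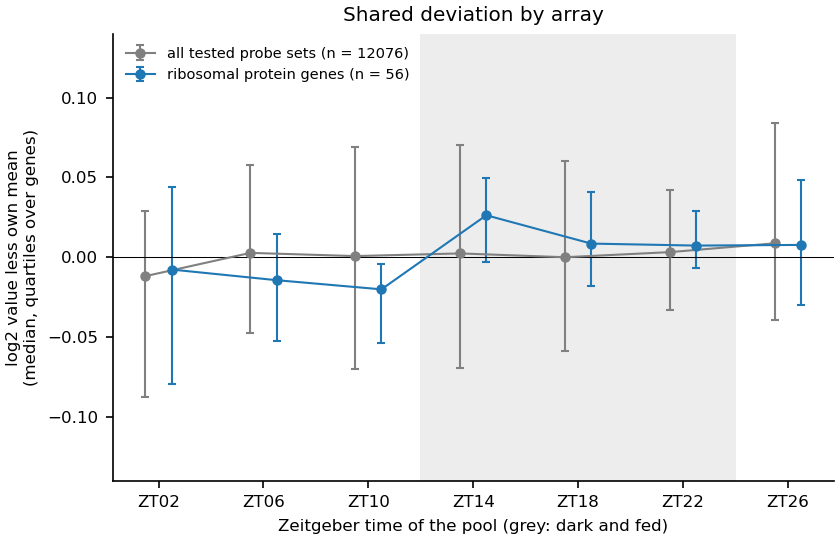
Points give the median over genes of the log2 value less each gene's own mean, bars the quartiles, for the 56 ribosomal protein genes (blue) and all 12076 tested probe sets (grey), by Zeitgeber time on the x axis, with the dark and feeding phase shaded. The blue median is -0.02 at ZT10 and stands at 0.03 at ZT14, while the grey median stays within 0.02 of 0 on all arrays.

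Markers of liver cell types were read on the same arrays. The 5 hepatocyte markers summed to between 67787 and 70460.3 units, whereas the 8 measured Kupffer cell markers, of 9 listed, summed to 4616 units at ZT10 and 7303 at ZT26, and of the 7 above the minimum 5 were rhythmic. At ZT14, 4 of these 7 markers read higher than at ZT10, with a median difference over the 7 of 0.09 log2, as did 4 of the 5 hepatocyte markers, with a median of 0.02 log2. The 5 endothelial markers summed to between 4299.9 units at ZT02 and 5549 at ZT22. Their ranges were 0.14 log2 for Pecam1, 0.16 for Stab2, 0.27 for Kdr, 0.51 for Clec4g and 0.74 for Lyve1. Of these 5, 4 read higher at ZT14 than at ZT10, with a median difference of 0.01 log2. Summed stellate cell markers ran from 5433 units at ZT10 to 6778 at ZT22. At ZT14, 3 of these 5 read higher than at ZT10, with a median difference of 0.11 log2. Of the cholangiocyte, lymphocyte and erythroid markers, 1 of 4, 2 of 5 and 1 of 4 passed the minimum. The part of cell composition in the step was not tested.

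A curve with a period of 24 h was then fitted to the log2 values of all tested probe sets, with limma's moderated F-test and Benjamini-Hochberg adjustment over 12076 probe sets. None of the 56 genes was rhythmic at an adjusted p under 0.05, where the background was 4.47% (540 of 12076 probe sets). At an unadjusted p under 0.05 there was 1 gene of 56, Rpl7l1, with a background of 25.7%, and the Fisher test for 1 period, without moderation, gave 1 gene unadjusted (17.4% of all tested probe sets). After adjustment it gave 0 of all 12076, the 56 genes included, so that 0 does not set them apart. As a scale, the clock genes Dbp and Arntl (Bmal1) had ranges of 19.4-fold and 12.7-fold and passed the same test (adjusted p = 0.0151 and 0.0247), and albumin had a range of 1.07-fold.

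The fitted amplitudes, the distance from the mean of the curve to its peak, were 0.04 log2 for the median ribosomal protein gene and 0.09 log2 for the median tested probe set. The upper end of the 95% interval of the amplitude was under 0.25 log2 for 49 of the 56 genes (87.5%), compared with 50.5% of all tested probe sets. For the median gene that upper end corresponded to a 1.23-fold difference between peak and trough, so that daily differences up to this size were not excluded with 7 arrays. Fitted peaks lay between ZT12 and ZT24 for 40 of the 56 genes. Of these, 9 lay from ZT12 to ZT16, 22 from ZT16 to ZT20 and 9 from ZT20 to ZT24. The same spans held 18.6%, 15.8% and 16.7% of the peaks of all tested probe sets. Single peaks are poorly placed at such amplitudes: for Rps6 the standard error of the peak was 3.47 h.

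Dark and light arrays were also compared directly, ZT14, ZT18 and ZT22 against ZT02, ZT06, ZT10 and ZT26. None of the 56 genes passed limma's test, and the background was 0% (0 of 12076). At an unadjusted p under 0.05 there were 2 genes, Rpl7l1 and Rpl22, where the background was 11.2%. The dark mean was nevertheless above the light mean for 41 of the 56 genes (73.2%), compared with 51.4% of all tested probe sets, by a median of 0.03 log2. Without ZT14 this was still so for 39 genes, with a median of 0.02 log2. In 15 of the 56 genes (26.8%), ZT02, ZT06 and ZT10 all read below the other 4 arrays, against 5.44% of all tested probe sets. In that order the light array ZT26 stood with the dark arrays. In 3 genes, Rpl7a, Rpl8 and Rpl34, all 3 dark arrays read above all 4 light arrays (5.36% against 4.23% of all tested probe sets). In 1, Rpl22, all dark arrays read below all light arrays (1.79% against 4.45% of all tested probe sets).

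Rpl7l1 (10451472), a paralog of Rpl7 that is found in pre-ribosomes, was the member with the clearest time course. It read 1698, 1628, 1572, 1998, 2159, 1834 and 1834 units. Its 3 light arrays of the first day were the lowest, ZT14 read above all of them, and the highest array was ZT18. The fitted amplitude was 0.20 ± 0.05 log2 (SE, 7 arrays) with a peak at ZT18.4 (limma, unadjusted p = 0.0169, adjusted p = 0.114). Dark arrays were higher than light arrays by 0.25 ± 0.08 log2 (limma, adjusted p = 0.403). Neither passed the threshold after adjustment. Rpl7 itself, the core protein, had a range of 1.08-fold and an amplitude of 0.03 log2.

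Rpl22 (10510720), a large subunit protein with a paralog, Rpl22l1, that is named only on probe sets with several symbols, ran the other way. It read 387, 402, 396, 350, 371, 356 and 382 units, so that each of the 3 dark arrays was below each light array. The difference was -0.13 ± 0.04 log2 (limma, unadjusted p = 0.0178, adjusted p = 0.403), and the fitted peak was at ZT6.28. Rpl38 (10548976), known for its part in translating Hox mRNAs, was highest at the same clock time on both days. It read 3248, 3009, 2854, 2874, 2864, 2993 and 3122 units, lowest from ZT10 to ZT18, with an amplitude of 0.08 ± 0.03 log2 (limma, adjusted p = 0.234). All 4 of its probe sets were highest at ZT02.

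Several genes read lower on the first arrays than on all later ones. Rpl36 (10378783) read 1932 and 1975 units at ZT02 and ZT06, and then 2283, 2260, 2423, 2305 and 2326 units. ZT02 and ZT26 are the same clock time, yet ZT26 was higher by 0.27 log2, and all 9 probe sets of the gene had ZT02 and ZT06 below the other 5 arrays. The same order was seen in Rps29 (10400635), at 712 and 743 units and then 781 to 800 units, in all 4 of its probe sets. It was also seen in Rps15 (10538629), near the decoding centre, at 5519 and 5522 units and then 5957 to 6161 units, in all 3 of its probe sets, and in Rps10 (10438564), at 2910 and 2941 units and then 3083 to 3262 units, in 2 of its 3 probe sets. In all, 12 of the 56 genes (21.4%) had both early arrays below all others, as had 8.69% of all tested probe sets.

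Other genes were highest on the first arrays. Rpl36a (10601755), which contacts the E site of the large subunit, read 3081, 3037, 2847, 2917, 2567, 2906 and 2749 units, highest at ZT02 and lowest at ZT18. Its other probe set had the same highest and lowest arrays. Rps9 read 1091 and 1112 units at ZT02 and ZT06, 920 at ZT18 and 957 at ZT26. Its other probe set was also lowest at ZT18 but was highest at ZT10, so the high early arrays belong to the chosen probe set. Rpl24 was highest at ZT02 (999.6 units) and lowest at ZT26 (851 units), as on all 3 of its probe sets. Over all 56 genes, ZT26 and ZT02 differed by a median of 0.07 log2 in either direction, against a median range over all 7 arrays of 0.15 log2. ZT26 was the higher in 30 genes (53.6%), compared with 63.2% of all tested probe sets.

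**Figure D4:**
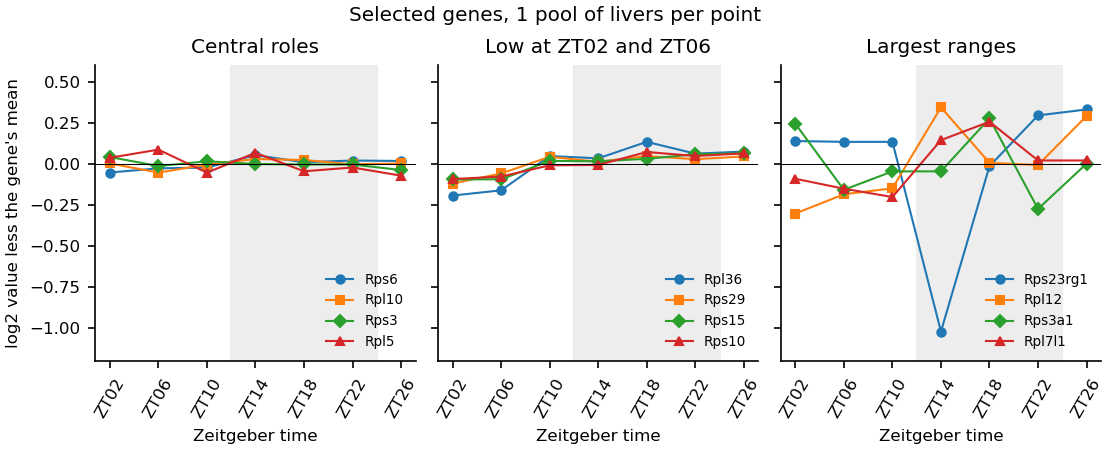
The log2 value less the gene's mean (y axis) against Zeitgeber time, 1 pool of livers per point, for 4 genes with central roles and levels above 1000 units, 4 genes with ZT02 and ZT06 below the other arrays, and the 4 genes with the largest ranges, with the dark and feeding phase shaded. Rps23rg1 at ZT14, 125 units against 279 at ZT10, is the point farthest from 0.

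Of the 5 widest ranges, 4 belonged to genes below 400 units, and the other to Rpl7l1. Rps23rg1 (10569823), a retrotransposed relative of Rps23, read 280, 279, 279, 125, 252, 312 and 320 units. A single array, ZT14, made its 2.55-fold range, and the fit gave an adjusted p of 0.247 (limma). Rpl12 (10471550), a protein of the stalk base, read 70.5, 76.4, 78.3, 110, 87.2, 86.4 and 106 units, with ZT14 and ZT26 the highest. Rps3a1 (10407120) read 187, 141, 153, 153, 191, 130 and 158 units, high at ZT02 and ZT18. Rps15a (10567216) read 154, 126, 127, 145, 173, 133 and 144 units, high on the same 2 arrays.

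Below 400 units, 11 of the genes had a median range of 0.27 log2, against 0.32 for the 6872 tested probe sets of that level. Above 2500 units, 18 genes had a median range of 0.11 log2, against 0.19 for 818 tested probe sets. Rpl12, Rps3a1 and Rps15a are each represented here by 1 probe set. Many processed copies of ribosomal protein genes share sequence with the parent mRNA, so the level that 1 such probe set gives is uncertain.

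Of the ribosomal protein genes with other names, 5 were measured on probe sets with 1 symbol, and their ranges were small too. Rplp0 and Rplp1, of the stalk, ran from 5760 to 6182 and from 5960 to 6403 units, Fau from 4043 to 4458, Rpsa from 1516 to 1787 and Rplp2 from 84.9 to 94.7. None of the 5 was rhythmic by limma, nor had any an unadjusted p under 0.05, and their median amplitude was 0.04 log2. Of 18 genes for elongation factors and other TOP mRNAs, 0 were rhythmic and 3 (Nap1l1, Eif4b and Eif4a2) had an unadjusted p under 0.05, with backgrounds of 4.47% and 25.7%. Eef1a1 and Eef2, the main elongation factors, had ranges of 1.05-fold and 1.06-fold, and the median amplitude of the list was 0.08 log2.

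In the mTOR and S6 kinase pathway, 1 of 24 tested genes was rhythmic, near the background of 4.47%, and 10 had an unadjusted p under 0.05, where the background was 25.7%, with a median amplitude of 0.15 log2. The rhythmic gene was Larp1, which binds TOP mRNAs. It read 2655, 2331, 1910, 1953, 2469, 2686 and 2822 units, with a peak at ZT23.6 and an amplitude of 0.29 log2 (limma, adjusted p = 0.0257), and its lowest arrays were ZT10 and ZT14. The call was lost when ZT02, ZT06, ZT10, ZT14 or ZT26 was left out, with adjusted p from 0.0446 to 0.101 over the 7 fits that each left out 1 array. Mtor itself read 588, 771, 767, 594, 518, 571 and 594 units, high at ZT06 and ZT10, and Eif4ebp1, the translation repressor that mTOR phosphorylates, ran from 801 at ZT18 to 1026 units at ZT10. Both had an adjusted p of 0.0565 (limma).

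Of 22 tested genes for rRNA synthesis and ribosome assembly, 2 were rhythmic and 13 had an unadjusted p under 0.05, against 4.47% and 25.7% of all tested probe sets, and the median amplitude was 0.17 log2. Gnl3 (nucleostemin), of pre-60S assembly, read 236, 294, 372, 388, 291, 288 and 246 units (limma, adjusted p = 0.0431), and Rrn3, the RNA polymerase I initiation factor, read 410, 489, 594, 614, 514, 489 and 450 units (adjusted p = 0.0457). Both were highest at ZT14 and next highest at ZT10, with fitted peaks at ZT12.7 and ZT13.1. The Gnl3 call was lost in 5 of the 7 fits that each left out 1 array, with adjusted p from 0.0266 to 0.170, and the Rrn3 call in all 7, from 0.0525 to 0.171. ZT14 read above ZT10 in 18 of the 22 (81.8%), with a median difference of 0.17 log2, against 47.8% of all tested probe sets. It did so in 46 of the 56 ribosomal protein genes. Of the 18 elongation factor and other TOP genes, 12 read higher at ZT14, with a median difference of 0.02 log2. In the mTOR and S6 kinase pathway 10 of 24 did, with a median of -0.02 log2.

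Among 7 transcription factors linked to ribosomal protein promoters, 0 were rhythmic and 4 had an unadjusted p under 0.05, against the same 4.47% and 25.7%. Myc had the widest range, 3.47-fold, at 210, 191, 663, 479, 307, 213 and 238 units, highest at ZT10 and ZT14 (limma, adjusted p = 0.102). Gabpb1, the partner subunit of the GABP factor named above, was lowest at ZT14 (142 units) and highest at ZT26 (211 units), with an adjusted p of 0.102 (limma). ZT14 read above ZT10 in 2 of these 7, with a median difference of -0.27 log2.

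**Figure D5:**
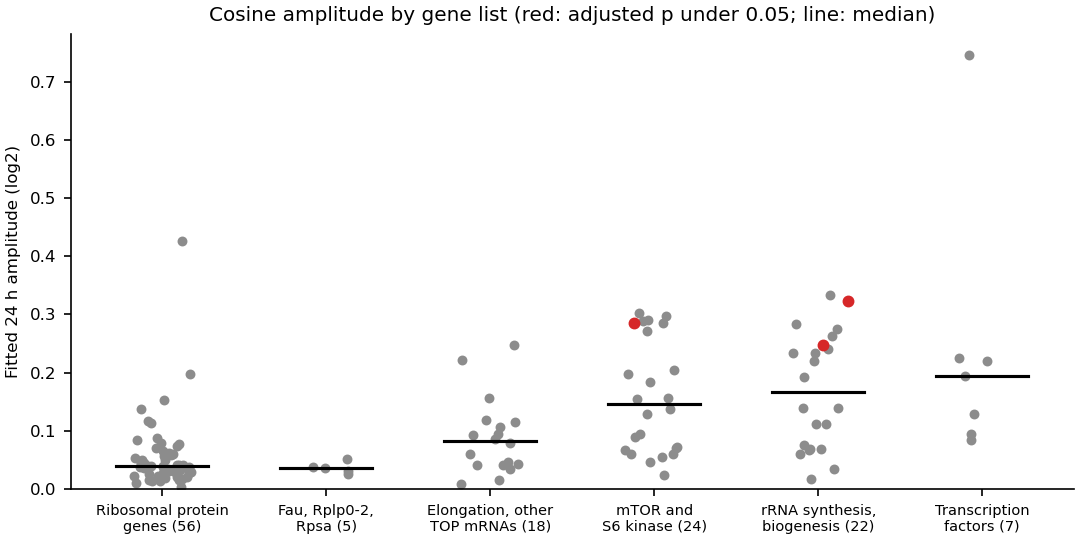
Each point is 1 gene, its y value the amplitude of the fitted 24 h curve in log2, for the 56 ribosomal protein genes and 5 lists of related genes with the number tested in brackets; the bar is the median and red marks an adjusted p under 0.05 (limma). The medians are 0.04, 0.04, 0.08, 0.15, 0.17 and 0.19 from left to right, and the 3 red points are Larp1, Gnl3 and Rrn3.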

How the data were processed

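The deposited table holds log2 expression values for 7 Affymetrix Mouse Gene 1.0 ST arrays. The authors normalised and summarised the probes by RMA in Affymetrix Expression Console 1.1.2637.26569, per the submitters' processing notes. RMA sets all arrays to a common distribution, so a change of total mRNA per cell is not seen, and the number of arrays limits the precision. For each time, 500 ng of RNA from each of 5 livers were pooled and 100 ng amplified. Of 35556 probe sets, 21789 had 1 symbol in the platform annotation, 1621 several and 12146 none. The tested set was the 12076 with 1 symbol and a mean above 85 units, which is about 2 times the background level of 43 units in the study's methods.

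Cosine and dark against light fits used limma 3.58.1 in R 4.3.3, with ZT26 entered as the same phase as ZT02, and were tested on simulated data: of 50 probe sets simulated with an amplitude of 0.1, 0.25, 0.5 or 1 log2, 0%, 42%, 78% and 96% were recovered. The members and lists were chosen with earlier results of these data known. Genes were named by role, by p, by largest and smallest range, by level and as paralogs. Genes outside this rule, such as Rps9, Rps10, Rps15, Rps29, Rpl7a, Rpl8, Rpl24 and Rpl34, were named after their values were seen. Alternatives were leaving out each array, other minimums, centrings, normalisation, scale, variance model, period and a drift term.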

Additional observations from a re-analysis of the deposited data

Results flagged for a closer look

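Among the 25 named genes and the mean over the 56, 26 profiles in all, 4 had an array that stood apart. Its distance to the nearest of the other 6 passed Dixon's limit, which flags about 1 profile in 20 by chance. Of all 56 genes, 6 had such an array, and the share over all tested probe sets was not computed. The chance rate assumes normally distributed values. Genes were named partly by range, and identical values were common, so it is only a rough guide. In Rps23rg1, ZT14 read 6.97 log2 and the other 6 arrays 7.98 to 8.32. In Rps19, ZT06 read 8.87 and the others 8.84, a gap of 0.03 log2 in a gene whose other arrays were nearly identical. In Rpl10, ZT06 read 13.18 and the others 13.23 to 13.26. In Rps19bp1, which encodes a protein that binds Rps19, ZT22 read 8.19 and the others 8.03 to 8.10.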

How the results depend on the processing

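In every fit that was run, 0 of the ribosomal protein genes were rhythmic and 0 differed between dark and light. Their median amplitude stayed at 0.04 to 0.05 log2, their median range at 0.13 to 0.15, the range of their mean profile at 0.03 to 0.07, and their median dark less light difference at 0.02 to 0.04. The fits without the 5 genes outside the core proteins and without those under 170 units were chosen after seeing the data. The lowest adjusted p of any named member was 0.0624 (Rps15a), with 0.0883 for Rpl7l1. Of the 3 related genes called rhythmic, Larp1, Gnl3 and Rrn3, all lost the call with no minimum and with the Fisher test for 1 period, with adjusted p from 0.0596 to 0.219, and Gnl3 and Rrn3 also on the natural scale. The number of all tested probe sets called rhythmic was not stable: from 540 it became 950 with arrays centred on their medians, 98 with a linear drift term, 68 on the natural scale, 57 with no minimum, 0 with the Fisher test for 1 period, 0 with a 12 h period, and 13 to 312 when 1 array was left out (13 without ZT02, 312 without ZT22). The cause was not tested, except that the fits without an array rest on 6 arrays. Dark against light gave 0 to 1 probe sets with 1 array left out, the 1 without ZT22, and it was none of the 56 genes. No paired analysis was possible because each time has 1 array. Amplitudes of 0.1 log2 were not recovered in simulated data, whose scatter was drawn from all tested probe sets. The median standard error of the amplitude was 0.044 log2 for all tested probe sets and 0.034 for these genes. Rhythms as small as those fitted to most of these genes may therefore have gone undetected here.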
